A study of Homo sapiens with 3 samples.

Results

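The genes described here encode enzymes and remodelling proteins of chromatin: every annotated symbol beginning with KDM, KMT, SETD, HDAC, SIRT, PRMT, ARID, SMARC, BRD, EZH or DNMT, or with KAT or CHD followed by a digit. The rule gave 87 of 8661 named genes, of which 33 were writers, 23 erasers, 24 remodellers and 7 readers by their prefix. Where several named probes measured a gene, the brightest on average over the arrays stands for it. LNCaP, an established human prostate cancer line, was treated for 24 h with ethanol as the vehicle (0 nM) or with bufalin at 10 or 20 nM, and RNA was hybridised to Illumina bead arrays. Bufalin is a toad venom steroid that blocks the sodium pump. Each treatment had 1 array, so the differences below rest on single arrays, and neither a test nor a standard error between treatments could be had.

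Writers add marks to histones or DNA. KMT, SETD and EZH proteins methylate lysine, PRMT proteins methylate arginine, KAT proteins acetylate lysine and DNMT proteins methylate cytosine in DNA. Erasers remove such marks, the KDM proteins as demethylases and the HDAC and SIRT proteins as deacetylases. SMARC and CHD proteins belong largely to complexes that use ATP to move nucleosomes. Among the ARID genes here, ARID1A and ARID2 encode subunits of such complexes, and the others count as remodellers by prefix alone. BRD proteins read acetylated lysine through bromodomains. The prefix is only a guide to function, since some members act mainly on proteins outside chromatin.

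The probes had a detection p-value below 0.01 on all 3 arrays for 73 members, on 2 arrays for 4, on 1 array for 7 and on none for HDAC4, KMT2A and SETD7, whose folds are not given. All 87 came from a deposited probe set that leaves out nearly every probe differing from vehicle by less than 10% at both doses. It also leaves out nearly every probe with a detection p-value below 0.05 on fewer than 2 arrays. A further 39 protein-coding genes of RefSeq match the rule but have no named probe here, among them DNMT3A, EZH1 and KMT2D. Members that differed little or were not detected may therefore be missing, and no count over the members is a share of the whole family. Of 10 luminal prostate markers, 8 were named and all 8 were detected on the vehicle array, including KLK3, which encodes prostate-specific antigen. The summed intensity of these 8 was 8179 with vehicle, 9859 at 10 nM and 10181 at 20 nM, of which TMPRSS2 alone held 1492, 3668 and 5800. At 20 nM 2 of the 8 were at least 2-fold higher and 4 lower. By any amount 5 of them lay below vehicle, with a median log2 fold change of -1.19. No basal marker was named, the stromal marker VIM read 421, 513 and 449, and the leukocyte marker CD14 was detected at 20 nM alone, at least 2.91-fold higher after background correction and 1.89-fold higher in the deposited intensities. What part these differences have in those of the chromatin genes was not tested. In a culture, fewer cells of a kind and less RNA per cell cannot be told apart.

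At 20 nM, chromatin genes lay on both sides of vehicle, with the arginine methyltransferase gene PRMT6 farthest below it in all 5 background and scaling settings. Farthest above it was the remodeller gene CHD2 after background correction, or CHD9 without it. The PRMT6 enzyme methylates arginine of histone H3. Its probe read 1561 with vehicle, 651 with 10 nM bufalin and 247 with 20 nM. That is 2.74-fold lower than vehicle at 10 nM and 9.75-fold lower at 20 nM after background correction and normalization, and 2.40-fold and 6.31-fold lower in the deposited intensities. The dimmer PRMT6 probe, with intensities of 1020, 480 and 218, gave log2 fold changes of -1.32 and -2.92 against -1.45 and -3.28 for the brighter one. CHD2, a chromodomain remodeller, read 141, 246 and 394 in the same order, which is 3.40-fold and 7.12-fold higher after background correction, but 1.75-fold and 2.79-fold higher in the deposited intensities. CHD9, a related remodeller, read 246, 682 and 859, or 3.89-fold and 5.12-fold higher, and 2.77-fold and 3.49-fold in the deposited intensities. Most of the CHD9 difference was already present at 10 nM, whereas CHD2 differed by a further 2.09-fold between the doses.

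**Figure D1:**
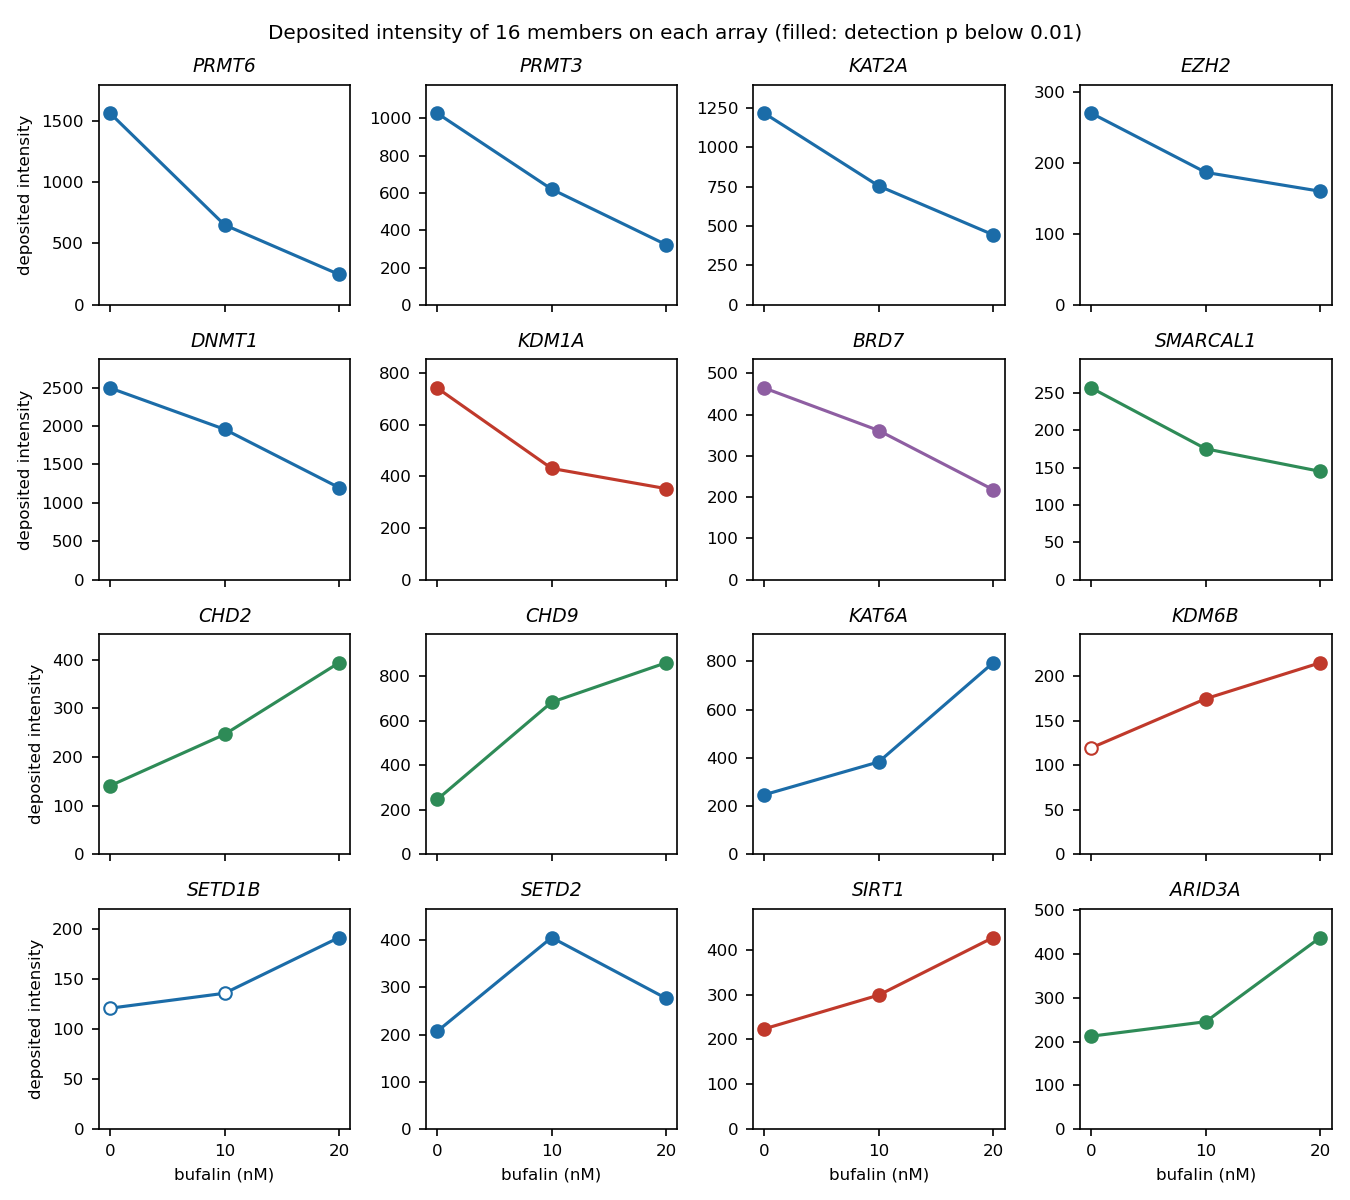
Deposited intensity (vertical axis, linear, from 0, a separate range for each gene) against bufalin concentration in nM for 16 members, with 1 array per point. Filled points have a detection p-value below 0.01 and open points do not. PRMT6 lies at 1561 with vehicle and 247 at 20 nM, CHD2 at 141 and 394, and SETD2 is highest at 10 nM, at 406.

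The promoters of the members farthest from vehicle with an entry that could be used are shown because these genes stand at the ends of the range. Each run is the 250 bases upstream of the annotated start, from RefSeq, build GRCh38.p14, on the plus strand in all 4 cases: PRMT6 at chr1:107056424-107056673, PRMT3 at chr11:20387466-20387715, CHD2 at chr15:92900074-92900323 and CHD9 at chr16:53054741-53054990. Capitals mark matches, on either strand, to the E-box CACGTG, which MYC and related factors bind, to the GC box GGGCGG, to the CCAAT box, to the AP-1 element TGACTCA, to the cAMP response element TGACGTCA or to the E2F-type motif TTTNNCGC.
PRMT6: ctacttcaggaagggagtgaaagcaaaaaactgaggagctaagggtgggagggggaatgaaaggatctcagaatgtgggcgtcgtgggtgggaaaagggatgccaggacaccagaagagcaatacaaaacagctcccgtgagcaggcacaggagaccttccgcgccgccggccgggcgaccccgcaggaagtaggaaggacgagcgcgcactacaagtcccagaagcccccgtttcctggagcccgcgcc
PRMT3: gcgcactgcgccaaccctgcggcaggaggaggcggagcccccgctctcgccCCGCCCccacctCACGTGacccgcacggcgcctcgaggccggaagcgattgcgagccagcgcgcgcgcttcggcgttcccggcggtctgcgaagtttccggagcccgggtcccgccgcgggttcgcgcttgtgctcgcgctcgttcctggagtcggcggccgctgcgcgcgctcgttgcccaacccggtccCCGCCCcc
CHD2: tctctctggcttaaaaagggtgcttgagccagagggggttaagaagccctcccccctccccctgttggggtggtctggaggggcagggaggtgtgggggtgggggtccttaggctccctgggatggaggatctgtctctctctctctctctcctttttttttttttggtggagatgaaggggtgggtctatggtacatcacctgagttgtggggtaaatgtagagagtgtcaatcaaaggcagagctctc
CHD9: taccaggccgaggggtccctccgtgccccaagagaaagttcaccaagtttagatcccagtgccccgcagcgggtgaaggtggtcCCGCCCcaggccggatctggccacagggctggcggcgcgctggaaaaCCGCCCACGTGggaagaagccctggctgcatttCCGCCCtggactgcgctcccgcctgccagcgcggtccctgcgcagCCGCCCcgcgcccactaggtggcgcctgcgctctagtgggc
PRMT3 and CHD9 each hold 1 E-box, with 2 GC boxes in PRMT3 and 4 in CHD9, of which 1 overlaps the E-box. PRMT6 and CHD2 hold none of the 6 motifs in this window.

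Promoter entries were found for 76 of the 87 members. An E-box was present in 2 of the 15 at least 2-fold lower at 20 nM (PRMT3 and SETD6) and in 2 of the 13 at least 2-fold higher (CHD9 and SIRT1). It was present in 9.62% of the promoters of 7108 named genes and in 6.34% of all 35116 promoters in the table. The GC box occurred in 8 of the 15 lower and 8 of the 13 higher members, against 67.5% of promoters of named genes and 42.6% of all. A CCAAT match occurred in 5 of the lower and 4 of the higher members, against 36.6% and 32.0%. The E2F-type motif was found in BRD7 and SMARCAL1 among the lower members and in none of the higher ones, against 9.65% and 5.92%. No called member held the AP-1 or cAMP response element, which occurred in 2.18% and 3.21% of promoters of named genes and in 4.2% and 1.65% of all. A match is a description of these letters and not a binding site.

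Among all detected members at 20 nM, 18 of 84 were at least 2-fold higher than vehicle, 15 were at least 2-fold lower and 51 were neither. With the genes detected on 1 array of the pair at their bounds, 16 were higher and 15 lower. Folds and bounds are on the background-corrected scale unless the deposited intensities are named. Over all named detected genes, 14.7% were at least 2-fold higher and 16.6% at least 2-fold lower. The members' shares were 21.4% and 17.9%. Their median log2 fold change was -0.13, against -0.10 for all named detected genes. By any amount, 48.8% of the members and 47.9% of all named detected genes lay above vehicle at 20 nM. The family counts given further on stand beside that share for direction, and beside 14.7% and 16.6% for genes at least 2-fold higher and lower. At 10 nM, 5 of 79 members were at least 2-fold higher and 5 at least 2-fold lower, or 6.33% each, against 6.46% and 3.27% of all named detected genes. Without background correction the counts were 5 higher and 6 lower at 20 nM, or 5.95% and 7.14% of the members against 6.61% and 6.53% of all named detected genes, so the members' share of higher genes was then below the background. At 10 nM they were 1 and 1, or 1.27% of the members each, against 2.36% and 0.547% of all named detected genes.

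Of the 33 calls at 20 nM, 11 were past 2-fold in all 5 settings: PRMT6, PRMT3, KAT2A, BRD7, DNMT1, KDM1A, CHD2, CHD9, KAT6A, ARID3A and ARID5B. The others were under 2-fold in the deposited intensities, where the background is still included. Among the higher ones these ratios lay between 1.26 for KMT5C and 1.91 for SIRT1, with 1.47 for BRD10, 1.42 for ARID3B and 1.76 for KDM3A. Among the lower ones they lay between 1.53 for SMARCAD1 and 1.94 for PRMT5, with 1.77 for SMARCAL1, 1.69 for EZH2, 1.67 for SETD6 and 1.79 for BRD3OS.

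**Figure D2:**
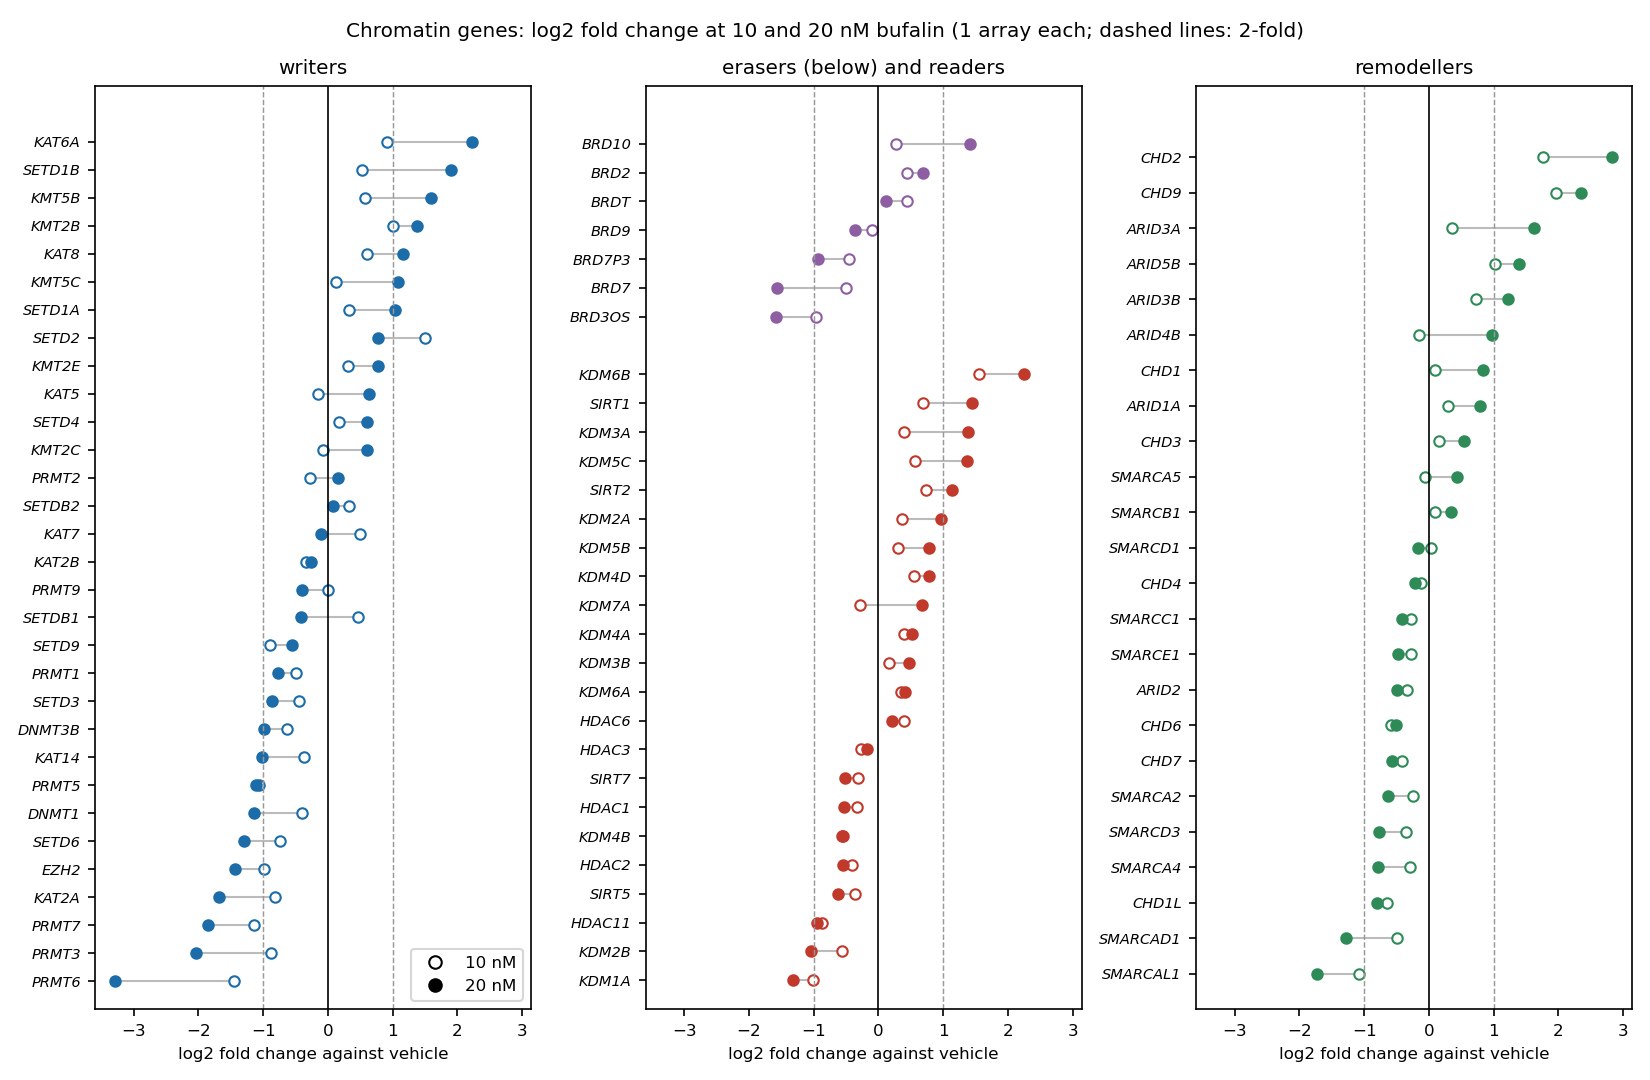
Log2 fold change against vehicle (horizontal axis) of the 84 members detected at 20 nM or on the vehicle array, 1 row per gene, ordered within each class by the 20 nM value. Open points are 10 nM and filled points 20 nM, dashed lines mark 2-fold, and genes detected on 1 array only are drawn at their measured value. The lowest filled point is PRMT6 at -3.28 and the highest is CHD2 at 2.83.

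By class at 20 nM, each of writers, erasers and remodellers had members past 2-fold on both sides. The shares over all named detected genes were 14.7% higher and 16.6% lower. The 31 detected writers comprised 7 higher (22.6%), 9 lower (29.0%) and 15 within 2-fold. Their log2 fold changes had a median of -0.26 and a middle 50% from -1.06 to 0.77. The 22 erasers comprised 5 higher (22.7%), 2 lower (9.09%) and 15 within 2-fold, around a median of 0.44 and a middle 50% from -0.54 to 0.93. The 24 remodellers comprised 5 higher (20.8%), 2 lower (8.33%) and 17 within 2-fold, around a median of -0.19 and a middle 50% from -0.59 to 0.87. Of the 5 higher, 3 were ARID genes, classed by prefix alone. Among 7 readers 1 was higher (14.3%) and 2 lower (28.6%), around a median of -0.36. BRD3OS, which is 1 of the lower ones, and BRD7P3 share the prefix but are not bromodomain proteins. These middle ranges overlap over most of their length. The eraser median also depended on dim genes: it was 0.26 with the 4 erasers detected on 1 array at their bounds, and 0.02 over the 18 detected on both arrays. At 10 nM the medians were -0.30 for writers, -0.05 for erasers, -0.14 for remodellers and -0.10 for readers.

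The arginine methyltransferase genes lay mostly below vehicle. At 20 nM, 4 of the 7 detected PRMT genes were past 2-fold on the low side and 0 on the high side, and their median was -1.11 on the log2 scale. PRMT3, whose enzyme methylates a protein of the small ribosomal subunit, read 1028, 620 and 323 on the vehicle, 10 nM and 20 nM arrays, or 4.10-fold lower at 20 nM. PRMT7, an enzyme that places a single methyl group, read 200, 144 and 126 and was not detected at 20 nM, so it was at least 2.43-fold lower after background correction and 1.59-fold lower in the deposited intensities. PRMT5, the main source of symmetric dimethylarginine, read 1061, 572 and 546, which is 2.08-fold and 2.15-fold lower. Its other probe read 789, 514 and 430, with log2 fold changes of -0.78 and -1.06, so it was inside 2-fold at 10 nM. PRMT1, the main source of asymmetric dimethylarginine, was 1.71-fold lower at 20 nM and PRMT9 was 1.31-fold lower. PRMT2 lay above vehicle at 20 nM, with intensities of 285, 255 and 299, and its other probe read 208, 262 and 232. The 2 PRMT2 probes disagree at 10 nM, with log2 fold changes of -0.27 and 0.58.

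Lysine methyltransferases of the KMT family lay above vehicle in all 5 detected cases at 20 nM. By value 3 of them were past 2-fold, and the median was 1.08. Of the 5, 2 were detected at 20 nM alone and entered through that array, so their direction was largely set by the detection rule. With these 2 at their bounds, 2 of the 5 were past 2-fold and the median was 0.77. In the deposited intensities the median was 0.38 and 0 of the 5 passed 2-fold, with 1.88-fold for KMT5B and 1.54-fold for KMT2B. KMT5B, which methylates lysine 20 of histone H4, read 183, 223 and 343 and was 3.02-fold higher at 20 nM. By its other probe the log2 fold change was 0.51, not 1.59, so the 2 probes place KMT5B on different sides of the 2-fold line. KMT2B, a methyltransferase of lysine 4 of histone H3, read 154, 211 and 237 and was 2.59-fold higher. KMT5C was detected at 20 nM alone and was at least 1.40-fold higher after background correction, so it does not pass 2-fold at its bound, and 1.26-fold higher in the deposited intensities. KMT2E was 1.70-fold higher, and KMT2C was at least 1.33-fold higher, or 1.14-fold in the deposited intensities.

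The SETD genes were spread over both sides at 20 nM, with a median of 0.07. Of 9, 2 were at least 2-fold higher (22.2%) and 1 lower (11.1%), against 14.7% and 16.6% of all named detected genes. SETD1A and SETD1B encode catalytic subunits of complexes that methylate lysine 4 of histone H3. SETD1B read 121, 136 and 191 and was detected at 20 nM alone, so it was at least 2.36-fold higher after background correction and 1.59-fold higher in the deposited intensities. SETD1A read 242, 280 and 382, or 2.06-fold higher. SETD2, which trimethylates lysine 36 of histone H3, did not follow dose: it read 207, 406 and 277, or 2.82-fold and 1.71-fold above vehicle. SETDB1, a methyltransferase of lysine 9 of histone H3, read 208, 251 and 176 and likewise peaked at 10 nM. SETD6, which methylates the NF-kappa-B subunit RelA, read 284, 211 and 171, or 2.45-fold lower at 20 nM. SETD3, whose enzyme methylates actin and not chromatin, was 1.81-fold lower.

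EZH2, the catalytic subunit of the Polycomb complex that methylates lysine 27 of histone H3, was lower by all 3 of its probes. The brightest read 270, 187 and 160, which is 1.98-fold lower at 10 nM and 2.69-fold lower at 20 nM. On the log2 scale the 20 nM difference was -1.43 by this probe and -0.99 and -1.34 by the others. DNMT1, the maintenance methyltransferase of DNA, read 2494, 1957 and 1198 and was 1.31-fold and 2.21-fold lower. DNMT3B, a de novo methyltransferase, was detected on the vehicle array alone and was at least 1.19-fold lower at 20 nM.

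The acetyltransferase genes lay on both sides of vehicle. KAT2A, the catalytic subunit of SAGA and also part of the ATAC complex, read 1215, 754 and 444, or 3.22-fold lower at 20 nM. KAT14, another ATAC subunit, read 1147, 925 and 618, or 2.03-fold lower. KAT6A, a MYST family acetyltransferase that was first known from leukaemia fusions, read 247, 383 and 794, or 1.88-fold and 4.67-fold above vehicle. KAT8, which acetylates lysine 16 of histone H4, read 234, 306 and 390, or 2.24-fold higher at 20 nM. KAT5, KAT7 and KAT2B stayed within 2-fold, at log2 fold changes of 0.63, -0.10 and -0.26. Over the 7 KAT genes the median was -0.10 at 20 nM, with 2 at least 2-fold higher and 2 lower (28.6% each). Over all named detected genes these shares were 14.7% and 16.6%.

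**Figure D3:**
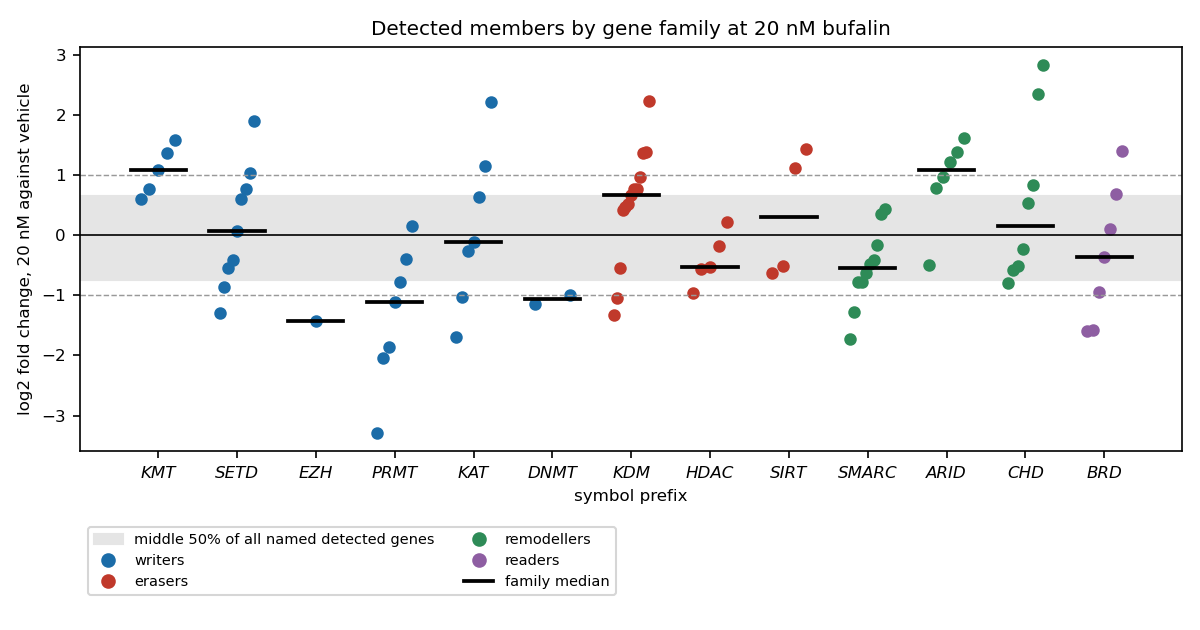
Log2 fold change at 20 nM against vehicle (vertical axis) of each detected member, grouped by symbol prefix and coloured by class. Black bars are family medians, the grey band is the middle 50% of all named detected genes (-0.74 to 0.65), and dashed lines mark 2-fold. Genes detected on 1 array are at their measured value. The PRMT bar stands at -1.11, the KMT bar at 1.08 (0.77 at bounds) and the ARID bar at 1.09, all outside the band. The EZH, DNMT and KDM bars, at -1.43, -1.06 and 0.67, also lie outside it.

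Among erasers, most lysine demethylase genes lay above vehicle at 20 nM, with 10 of 13 above and 3 below. Over all named detected genes 47.9% lay above. Of the 10, 4 were not detected on the vehicle array and entered through the 20 nM array, so their direction was largely set by the detection rule. The median of the 13 was 0.67, or 0.47 with these 4 at their bounds. KDM6B, a demethylase of lysine 27 of histone H3 that opposes EZH2, read 120, 175 and 215. It was not detected on the vehicle array, so it was above vehicle by at least 1.81-fold at 10 nM and 2.94-fold at 20 nM after background correction. In the deposited intensities its log2 ratios were 0.55 and 0.85. KDM6A, with the same substrate, read 618, 780 and 804 and was 1.33-fold higher. KDM3A, a demethylase of lysine 9 of histone H3, read 199, 230 and 350, or 2.62-fold higher at 20 nM. KDM5B and KDM5C remove methyl groups from lysine 4 of histone H3. KDM5B was 1.71-fold higher, and KDM5C, detected at 20 nM alone, stood at 0.59 or more on the log2 scale after background correction and at 0.44 in the deposited intensities. Of the remaining demethylases above vehicle, KDM2A was 1.96-fold, KDM3B 1.39-fold and KDM7A 1.59-fold higher, and KDM4A and KDM4D were at least 1.23-fold and 1.12-fold higher, against 1.12-fold and 1.18-fold in the deposited intensities.

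Below vehicle were KDM1A, KDM2B and KDM4B. KDM1A, the LSD1 enzyme that demethylates lysine 4 of histone H3 and works with HDAC1 and HDAC2 in the CoREST complex, read 743, 431 and 353. It was 2.01-fold lower at 10 nM and 2.50-fold lower at 20 nM. KDM2B, which recruits a Polycomb complex to CpG islands, read 755, 558 and 417, or 2.05-fold lower at 20 nM. KDM4B was 1.45-fold lower.

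No detected histone deacetylase passed 2-fold at 20 nM, and 4 of 5 lay below vehicle, with a median of -0.52. HDAC1 read 3875, 3302 and 2919 and HDAC2 read 2786, 2176 and 1995, which is 1.44-fold and 1.47-fold lower at 20 nM. HDAC11 was 1.94-fold lower, and past 2-fold under median scaling at a log2 fold change of -1.07. HDAC3 was 1.13-fold lower, and HDAC6, which acts on tubulin, was 1.16-fold higher. The sirtuins, which use NAD, were split by gene. SIRT1, a mostly nuclear deacetylase of p53 and histones, read 223, 299 and 427, or 2.73-fold higher at 20 nM, and SIRT2 read 245, 345 and 409, or 2.19-fold higher. On the log2 scale the 2 SIRT2 probes stood at 1.13 and 0.73. SIRT5, a mitochondrial enzyme that removes succinyl groups, was 1.54-fold lower, and SIRT7 was 1.43-fold lower.

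Among the genes classed as remodellers by prefix, most SMARC genes lay below vehicle at 20 nM and most ARID genes above it. Of 10 SMARC genes, 8 lay below vehicle, with a median of -0.55. At least 2-fold lower were 2 (20.0%), near the 16.6% over all named detected genes. These were SMARCAL1, an annealing helicase that acts at stalled replication forks (257, 175 and 145, or 3.32-fold lower), and SMARCAD1, another helicase-like remodeller (229, 193 and 150, or 2.43-fold lower). Of 6 ARID genes, 5 lay above vehicle, with a median of 1.09, and 3 were at least 2-fold higher. ARID3A, a DNA-binding factor, read 212, 245 and 438, or 3.09-fold higher. ARID5B read 413, 742 and 923, or 2.62-fold higher, and ARID3B was 2.32-fold higher. ARID4B, of the SIN3 deacetylase complex, had log2 fold changes of 0.97, 1.01 and 1.89 at 20 nM by its 3 probes.

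The subunits of SWI/SNF complexes with SMARC, ARID or BRD symbols, grouped after their values had been seen, were 11 of the members. At 20 nM, 9 lay below vehicle and 1 was at least 2-fold lower, with a median of -0.47. SMARCA4, which encodes the BRG1 ATPase, read 2192, 1827 and 1335, or 1.72-fold lower, and the alternative ATPase gene SMARCA2 was 1.54-fold lower. SMARCC1, SMARCE1, SMARCD1 and SMARCD3 were 1.33-fold, 1.39-fold, 1.12-fold and 1.71-fold lower. ARID1A, a defining subunit of the BAF form, read 779, 944 and 1305 and was 1.72-fold higher. ARID2, of the PBAF form, was 1.40-fold lower. BRD7, also of PBAF, read 464, 361 and 218, or 2.97-fold lower at 20 nM, and its 2 probes stood at -1.57 and -1.59 on the log2 scale. They differed at 10 nM, at -0.51 and -1.18, and between the doses, at -1.06 and -0.42. BRD9, of the non-canonical form, was 1.28-fold lower, and SMARCB1 was 1.27-fold higher. Subunits without these prefixes went both ways at 20 nM. On the log2 scale BICRA stood at 1.61, SS18 at 0.83, BCL7B at 0.76 and DPF2 at 0.235. ACTL6A stood at -0.50, PHF10 at -0.33 and BCL7C at -0.145.

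Apart from CHD2 and CHD9, no CHD gene passed 2-fold at 20 nM. CHD1 was 1.79-fold higher and CHD1L, which is activated by poly(ADP-ribose), was 1.74-fold lower. CHD4, the ATPase of the NuRD complex, read 601, 573 and 528 by one probe and 279, 326 and 296 by the other, so its 2 probes differ in sign. SMARCA5, the ISWI ATPase, was 1.35-fold higher. Among readers, BRD2, a BET protein that binds acetylated histone H4, read 2207, 3010 and 3623, or 1.61-fold higher at 20 nM. BRD10 read 140, 149 and 205, or 2.65-fold higher. BRD3OS, a transcript from the strand opposite BRD3, read 282, 194 and 157, with a log2 fold change of -1.59 at 20 nM. BRD7P3 is a pseudogene copy of BRD7, so the source of its signal is uncertain, and it was 1.91-fold lower.

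**Figure D4:**
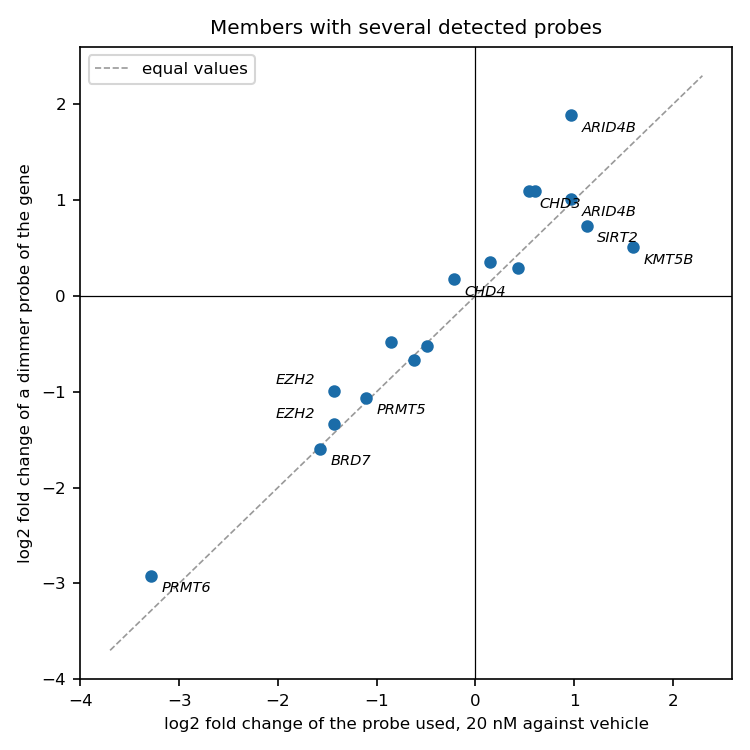
Log2 fold change at 20 nM against vehicle of the probe used for a gene (horizontal axis) and of its dimmer probes (vertical axis), for 17 dimmer probes of 15 members detected on at least 1 of both arrays. The dashed line marks equal values. Points lie on the same side of 0 on both axes for 14 members, and CHD4 differs in sign.

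Of the 16 members with several probes, 15 had at least 2 detected at 20 nM or on the vehicle array. Their probes had the same sign in 14 genes, with a pooled standard deviation between probes of 0.33 on the log2 scale, against 0.44 over 1858 named genes. At 10 nM the signs were the same in 9 of 14 genes and mixed in ARID2, ARID4B, CHD4, KMT5B and PRMT2. Probes of 1 gene share their RNA, so their spread is no measure of error between cultures.

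At 10 nM the members at least 2-fold higher were CHD9, CHD2, SETD2, ARID5B and, by its value but not at its bound, KDM6B. Those at least 2-fold lower were PRMT6, PRMT7, SMARCAL1, PRMT5 and KDM1A. PRMT7 was 2.20-fold lower at 10 nM, SMARCAL1 2.11-fold lower and ARID5B 2.04-fold higher. By class the counts were 1 higher (3.57%) and 3 lower (10.7%) among 28 detected writers and 1 and 1 (5.0% each) among 20 erasers. Among 24 remodellers they were 3 (12.5%) and 1 (4.17%), and among 7 readers 0 and 0. Over all named detected genes the shares were 6.46% and 3.27%.

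Normalized values were ordered upward with dose in 31 of the 84 members detected on any array, downward in 34 and neither way in 19. Over 8431 named genes the shares were 33.9%, 38.3% and 27.8%, and the members' shares of 36.9%, 40.5% and 22.6% lay near them. Of 22 erasers, 11 were ordered upward and 7 downward, and of 31 writers, 9 upward and 12 downward. The 10 nM and 20 nM folds are taken against a single vehicle array, so they are not independent.

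Between the doses, 7 of 82 members were at least 2-fold higher at 20 nM than at 10 nM and 3 at least 2-fold lower, against 2.73% and 4.86% of all named detected genes. The split was 5 and 4 under median scaling. Without background correction it was 1 and 1, or 1.22% of the members each, against 0.476% and 0.927% of all named detected genes. SETD1B was at least 2.38-fold higher after background correction, or 1.41-fold in the deposited intensities. KAT6A was 2.48-fold higher, ARID3A 2.40-fold, BRD10 2.19-fold, ARID4B 2.18-fold, CHD2 2.09-fold and KMT5B 2.03-fold. PRMT6 was 3.56-fold lower, PRMT3 2.23-fold and BRD7 2.09-fold. The calls of ARID4B, KMT5B and BRD7 held by the brightest probe of each gene only. On the log2 scale the other probes stood at 0.92 each for ARID4B, 0.74 for KMT5B and -0.42 for BRD7. PRMT5 was 1.03-fold lower at 20 nM than at 10 nM and KDM6A 1.04-fold higher. No eraser passed 2-fold between the doses, although KDM3A lay just inside it.

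A second list held 86 partners and further enzymes of chromatin outside the prefixes, of which 61 were named and 59 detected at 20 nM. At least 2-fold higher were 9 of these and lower were 5, while 45 lay between, around a median of 0.23 on the log2 scale. The shares were 15.3% and 8.47%, against 14.7% and 16.6% of all named detected genes. These counts are by measured value. DOT1L and EPC1, among the 9, were not detected on the vehicle array and lay inside 2-fold at their log2 bounds of 0.408 and 0.775. CREBBP and EP300 encode acetyltransferases. CREBBP read 264, 587 and 1084, or 5.91-fold higher at 20 nM, and EP300 read 121, 188 and 291 and, not being detected on the vehicle array, was at least 4.79-fold higher after background correction and 2.40-fold higher in the deposited intensities. JMJD1C, a relative of KDM3A, was 4.05-fold higher, or 2.54-fold in the deposited intensities. UHRF1, which guides DNMT1 to newly copied DNA, read 805, 501 and 247, or 4.71-fold lower, and RUVBL1, a helicase of the INO80 and TIP60 complexes, read 1095, 662 and 366, or 3.64-fold lower. Of the Polycomb partners of EZH2, EED was 1.72-fold higher and SUZ12 was 1.11-fold lower.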

How the data were processed

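The deposited table holds a bead summary intensity on a linear scale, not normalized per the file headers, for 47323 probes on 3 arrays. Beside each intensity it holds a deposited detection p-value. The submitters' processing notes name BeadStudio 3.0, and its background handling and a genome build are not given in the sources used here. Gene names were at hand for the 13753 probes of a second deposited table with identical intensities. Of these probes, 13752 differed by at least 10% from vehicle at either dose and passed a detection p-value of 0.05 on 2 or more arrays. A single symbol was paired with 10952 probes.

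With limma 3.58.1 in R 4.3.3, normexp fitted to the detection p-values removed the background. The values then received an offset of 16, quantile normalization and log2. The offset understates differences of dim genes, and background correction widens them against the deposited intensities. Between 14612 and 14735 probes per array were detected (p-value below 0.01), and the number of arrays limits the precision. A comparison used genes detected on at least 1 of its 2 arrays. For a gene detected on 1, the fold is a bound, against the higher of its dim value and the lowest detected value on that array. The threshold was 2-fold, with no test. Background correction and normalization were tried on simulated data, in which only detected probes well above background were changed. Dim probes, probe choice and bounds were not covered.

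The members and lists were chosen with earlier results of these data known. The naming rule took the 8 members highest and the 8 lowest at 20 nM, 4 each way in the other comparisons, the ends of each family, members past 2-fold at their bound and a fixed panel. Other members were named after their values were seen. Alternatives covered background, offset, scaling, detection, probe choice, bounds, threshold and class definitions.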

Additional observations from a re-analysis of the deposited data

How the results depend on the processing

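None of the 84 detected members, called or not, changed sign at 20 nM under the 5 background and scaling settings. These settings rescale the same 3 arrays, so an unchanged direction says little about a call. Of the 33 calls, 11 were past 2-fold under all 5: PRMT6, PRMT3, KAT2A, BRD7, DNMT1, KDM1A, CHD2, CHD9, KAT6A, ARID3A and ARID5B. At 10 nM PRMT6 and CHD9 were, of 10 calls. Counts at least 2-fold higher and lower at 20 nM (18 and 15) were 5 and 6 without background correction and in the unnormalized deposited intensities, and 31 and 25 at a 1.5-fold threshold; the higher count was 10 with an offset of 50. At 10 nM (5 and 5) they were 1 and 1 in both uncorrected settings, 3 and 2 with the larger offset, and 11 and 15 at 1.5-fold. Between the doses (7 and 3) they were 1 and 1 in both uncorrected settings and 18 and 13 at 1.5-fold, with 3 higher under the larger offset. Uncorrected background and a larger offset shrink the folds of dim probes, and a looser threshold adds calls, by construction. Over all named genes the 20 nM counts were 1226 and 1389, or 552 and 545 without background correction, and at 10 nM 532 and 269, or 194 and 45. The eraser median at 20 nM fell from 0.44 to 0.02 over genes detected on both arrays, so it lost nearly all of its value. At 20 nM the class medians ranged from 0.02 to 0.50 for erasers, -0.33 to -0.10 for writers and -0.41 to 0.01 for remodellers, which were above 0 with the dimmest detected probe of each gene. At 10 nM the eraser median ranged from -0.27 to 0.16. No paired analysis was possible because each group has 1 array.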
